A study of Mus musculus with 6 samples.

Results

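The genes described here are 10 components of the bone morphogenetic protein (BMP) pathway, taken by symbol from a table of 24736 genes. They are the ligands Bmp4 and Bmp7, the receptors Bmpr1a and Bmpr2, the inhibitory SMAD Smad6, the inhibitors of DNA binding Id1, Id2, Id3 and Id4, and the homeobox target Msx2. All 10 had a row in the table and all 10 passed the filter on low counts.

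RNA was sequenced from wild-type mouse embryonic stem cells (ESCs, 0 h) and from epiblast-like cells (EpiLCs, 48 h), with 3 biological replicates of each. Both came from 1 XY line, HM1 TetON, the parent of the study's engineered lines. The time is that of the labels, and the culture methods of the study name a longer one. ESCs were grown with 10% serum and 1000 U/ml LIF on feeder fibroblasts, and whether RNA was taken after feeder removal is not given in the sources used here. EpiLCs were made by culture in N2/B27 medium without serum, with 10 ng/ml bFGF and 5 µM LGK974, a porcupine inhibitor that blocks WNT secretion. Serum, LIF, feeder cells, bFGF, LGK974 and time all changed together, so their parts in any difference cannot be told apart. Library totals were between 16967741 and 35096210 expected counts, at which 3 counts stand for 0.0855 to 0.177 CPM (counts scaled to the library total). The markers fit the labels in that Fgf5, Pou3f1, Otx2 and Dnmt3b summed to 283 to 390 TPM (transcript abundance scaled for length and library) in ESCs and 1985 to 2064 TPM in EpiLCs, and Pou5f1 was at 1237 TPM or more in every library. Markers of fibroblasts were also present. Of 14 fibroblast markers, the 13 that could be tested all ranked the ESC libraries in the order 2, 1, 3, and the list summed to 364, 1689 and 133 TPM in ESC replicates 1, 2 and 3 against 96.5 to 107 TPM in EpiLCs.

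BMPs are secreted dimers that bring together type I and type II serine/threonine kinase receptors at the cell surface. The type I receptor then phosphorylates SMAD1, SMAD5 and SMAD9, which join SMAD4 and act on target genes, among which the ID genes and the inhibitory SMADs are the most general. ID proteins have a helix-loop-helix but no DNA-binding region, and hold E proteins in inactive dimers. In mouse ESC culture, serum is a known source of BMP activity, and BMP together with LIF is known to sustain self-renewal.

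RefSeq promoter sequences on GRCm38.p6, the build also called mm10, were available for 8 of the 10 members, not for Id1 or Bmp7. The 250 bases before the annotated start are shown for Id2, Id3 and Id4, relatives that did not change alike, and for Smad6, the feedback inhibitor, because their RNA levels are the main subject below. Both strands were searched for GGCGCC (a GC-rich SMAD1/5 site), GTCTG (which holds the SMAD box), GNCGNCNNNNNGTCT (both kinds of site at the spacing known from BMP-responsive elements, and able to overlap both) and TATAAA. Capitals mark the matches.
Id2, chr12:25096093-25096342, minus strand: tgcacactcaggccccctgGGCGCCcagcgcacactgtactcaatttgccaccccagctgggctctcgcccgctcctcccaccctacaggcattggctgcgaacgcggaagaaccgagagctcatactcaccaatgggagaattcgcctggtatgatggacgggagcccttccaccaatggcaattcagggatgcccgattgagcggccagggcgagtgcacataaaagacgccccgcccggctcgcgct
Id3, chr4:136143572-136143821, plus strand: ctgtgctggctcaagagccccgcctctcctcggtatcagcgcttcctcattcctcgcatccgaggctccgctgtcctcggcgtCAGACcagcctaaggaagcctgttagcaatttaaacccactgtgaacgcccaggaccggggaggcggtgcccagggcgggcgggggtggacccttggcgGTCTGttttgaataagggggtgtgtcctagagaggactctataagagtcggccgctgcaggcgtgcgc
Id4, chr13:48260866-48261115, plus strand: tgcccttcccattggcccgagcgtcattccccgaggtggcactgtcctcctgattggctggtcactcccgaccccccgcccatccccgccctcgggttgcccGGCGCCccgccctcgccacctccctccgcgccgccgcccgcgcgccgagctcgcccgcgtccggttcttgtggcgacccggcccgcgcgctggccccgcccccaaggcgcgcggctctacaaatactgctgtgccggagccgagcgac
Smad6, chr9:64022060-64022309, minus strand: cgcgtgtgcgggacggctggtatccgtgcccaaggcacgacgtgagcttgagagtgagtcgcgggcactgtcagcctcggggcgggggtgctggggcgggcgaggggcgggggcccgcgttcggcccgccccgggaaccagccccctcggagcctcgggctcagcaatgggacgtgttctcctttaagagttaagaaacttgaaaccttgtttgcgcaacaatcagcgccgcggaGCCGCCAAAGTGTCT
The Id3 window held GTCTG 2 times, at bases 167 to 163 before the start on the opposite strand and 68 to 64 on the gene's own strand. Id2 and Id4 each held GGCGCC 1 time, as did Bmpr2 and Bmpr1a, so 4 of the 8 members had it against 9.59% of 32851 promoters. These 4 windows were 62.8% (Id2) to 78.8% (Bmpr1a) G and C, and the comparison made no allowance for base composition. All 250 bases of the Bmpr1a window lie inside the annotated span of Bmpr1a. The spaced motif was found in Smad6 alone of the 8, in the last 15 bases before the start, against 0.511% of all promoters; the last 26 bases of this window lie inside the annotated span of Smad6. GTCTG occurred in 42.2% of all promoters and TATAAA in 12.4%, the latter in 0 of the 8 members. Windows of Bmp4 and Msx2 held none of these strings. Letters alone do not show binding, and these windows leave out elements farther away.

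At an adjusted p of at most 0.05 (edgeR's quasi-likelihood test, Benjamini-Hochberg over 14468 genes), 8 of the 10 members differed between EpiLCs and ESCs. Of these, 7 fell in EpiLCs and 1, Bmpr1a, rose. With any 1 library left out, 7 to 8 members were called, and the call lost was that of Bmpr2. Over all genes tested, 45.4% were called, 22.8% as lower and 22.6% as higher. A fold change beyond 1 on the log2 scale was reached by 6 of the members, all lower, against 20.2% of all genes in either direction. The median log2 fold change was -2.08 over the 10 members, beside -0.0017 over all genes tested. This contrast is not a test, as the members were chosen with earlier results of these data known. TPM ranges of the 3 ESC and 3 EpiLC libraries did not overlap for 7 members, against 59.5% of all genes. In bulk RNA, fewer cells expressing a gene and less RNA per cell cannot be told apart.

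**Figure D1:**
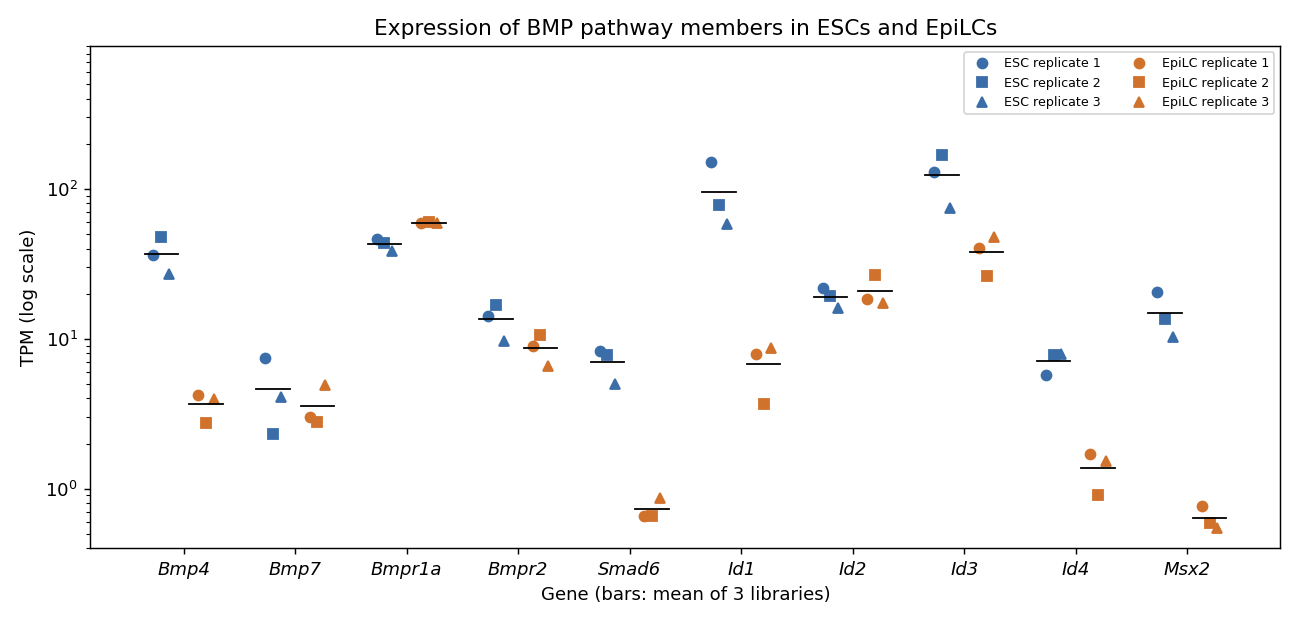
TPM (log scale) of the 10 members in each of the 3 ESC libraries (blue) and 3 EpiLC libraries (orange), with bars at the group means. Bmp4, Smad6, Id1, Id3, Id4 and Msx2 lie lower in every EpiLC library than in any ESC library, Bmpr1a lies higher, and the groups overlap for Bmp7, Bmpr2 and Id2.

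Bmp4, a ligand made by pluripotent cells and later by the extraembryonic ectoderm, lies on chromosome 14 from 46383525 to 46390669 on mm10. ESC replicates 1, 2 and 3 had 36.4, 47.7 and 27.0 TPM of it, against 4.24, 2.75 and 3.97 TPM for EpiLC replicates 1, 2 and 3. The lowest ESC library was 6.37 times the highest EpiLC library. The log2 fold change was -3.36 (standard error 0.26, edgeR adjusted p = 2.07e-04). Bmp7, a ligand of the other main BMP subgroup, lies on chromosome 2 from 172868012 to 172940321. Its levels were 7.4, 2.3 and 4.1 TPM in ESCs and 3.01, 2.79 and 4.89 TPM in EpiLCs, so the groups overlapped. Its change was -0.42 (standard error 0.43, edgeR adjusted p = 0.453) on the log2 scale, and the sign turned to 0.073 without ESC replicate 1. Bmp4 stood above Bmp7 by 3.13 ± 1.10 (SD, n = 3) in log2 TPM in ESCs, and by 0.06 ± 0.40 in EpiLCs, where Bmp4 was higher in 1 of 3 libraries. The 2 groups did not overlap in this ratio (exact two-sided permutation p = 0.1, the smallest that 3 against 3 libraries allow).

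The list of other ligands held 12 genes, of which 7 could be tested, and 3 were lower and 0 higher in EpiLCs. Bmp2, the closest relative of Bmp4, was at 22.2, 9.40 and 9.54 TPM in ESCs and at 0.54, 0.34 and 1.19 TPM in EpiLCs. Its log2 fold change was -4.36 (standard error 0.56, edgeR adjusted p = 0.00124). It was -3.85 without ESC replicate 1 and -5.0 without EpiLC replicate 3. Bmp5, a relative of Bmp7, fell by 4.63 on the log2 scale (standard error 0.66, edgeR adjusted p = 0.00186), from 2.89 ± 1.36 to 0.123 ± 0.107 TPM (SD, n = 3). Its change was -4.17 without EpiLC replicate 2 and -5.49 without EpiLC replicate 3. Gdf6, a low-level relative named after its values were seen, was the last of the 3, at 0.423 and 0.177 TPM on average (-1.29, edgeR adjusted p = 0.0150). Bmp1, which the list holds for its name, encodes a protease rather than a BMP ligand, and was not called (-1.0, edgeR adjusted p = 0.167). Gdf2 and Bmp10 had 0 counts in every library, which covers levels up to the 3-count floor given above. In ESCs Bmp4 was the highest of the growth factors, above Bmp2 (13.7 ± 7.32 TPM) in every library. In EpiLCs Bmp4 (3.65 ± 0.794 TPM) and Bmp7 (3.56 ± 1.15 TPM) led them and did not differ beyond their spread.

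Transcripts of the receptors Bmpr1a and Bmpr2 moved far less than that of the ligand Bmp4. Bmpr1a, the type I receptor that binds BMP2 and BMP4, lies on chromosome 14 from 34411061 to 34503336. It was at 46.1, 43.4 and 38.3 TPM in ESCs and at 59.3, 60.6 and 59.0 TPM in EpiLCs, with every EpiLC library above every ESC library. Its log2 fold change was 0.43 (standard error 0.07, edgeR adjusted p = 0.00357). Bmpr2, a type II receptor that activates the type I partner, lies on chromosome 1 from 59764279 to 59878081. Its levels were 14.3, 16.8 and 9.66 TPM in ESCs and 8.88, 10.7 and 6.55 TPM in EpiLCs, and EpiLC replicate 2 was above ESC replicate 3. The change of -0.69 (standard error 0.23, edgeR adjusted p = 0.0470) passed the threshold narrowly. It did not pass without ESC replicate 1, ESC replicate 2, EpiLC replicate 1 or EpiLC replicate 3, and the adjusted p ranged from 0.0112 to 0.132 when 1 library was left out. Nor did it pass with limma on log2(TPM + 1) (adjusted p = 0.0839) or log2(TPM + 0.1) (0.0796), or with at least 10 counts required in every library (0.0502). Within a library, Bmpr1a exceeded Bmpr2 by 1.68 ± 0.31 in log2 TPM in ESCs and 2.81 ± 0.34 in EpiLCs (SD, n = 3; exact two-sided permutation p = 0.1, the smallest possible).

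Of the 10 other receptors and co-receptors, all were tested, and 1 was higher and 2 were lower in EpiLCs. Bmpr1b, a second type I receptor, rose from 1.11 ± 0.248 to 2.75 ± 0.382 TPM (log2 fold change 1.29, standard error 0.21, edgeR adjusted p = 0.00345). It remained well under Bmpr1a and under Acvr1, another type I receptor, which averaged 11.3 ± 1.89 and 11.3 ± 0.709 TPM (log2 fold change -0.06, adjusted p = 0.765). The order Bmpr1a, Acvr1, Bmpr1b held in all 6 libraries. Acvrl1, a type I receptor known from endothelium, was lower in EpiLCs but low throughout, at 0.62 ± 0.318 and 0.17 ± 0.0964 TPM (log2 fold change -1.94, edgeR adjusted p = 0.0323; 0.0115 to 0.0889 when 1 library was left out, with the call kept only without ESC replicate 2). It was also not called with limma on log2(TPM + 1) (adjusted p = 0.0553). Tgfbr3, a co-receptor also called betaglycan, changed by -0.92 (edgeR adjusted p = 0.0287), and the call was lost without ESC replicate 1, EpiLC replicate 1 or EpiLC replicate 2 (adjusted p up to 0.0931).

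Among type II receptors Acvr2b, shared with Activin and Nodal signalling, had the highest level in both groups, with means of 28.2 ± 7.0 and 38.1 ± 1.17 TPM in ESCs and EpiLCs. Its change was 0.38 (edgeR adjusted p = 0.111), and without ESC replicate 2 a smaller change of 0.19 passed the threshold (adjusted p = 0.0346). In ESCs Bmpr2 was above Acvr2a in 3 of 3 libraries, with overlapping ranges. In EpiLCs Acvr2a (9.84 ± 0.957 TPM) and Bmpr2 (8.70 ± 2.07 TPM) did not differ beyond their spread. Acvr2a changed by 0.07 (adjusted p = 0.643). The co-receptors Rgma (-0.43), Rgmb (0.05), Eng (0.33) and Hfe2 (0.71) gave adjusted p-values of 0.449, 0.835, 0.114 and 0.0748 with edgeR, and Hfe2 passed the threshold without ESC replicate 3 (adjusted p = 0.0395) and with limma on log2(TPM + 1) (0.0374) or log2(TPM + 0.1) (0.0485).

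**Figure D2:**
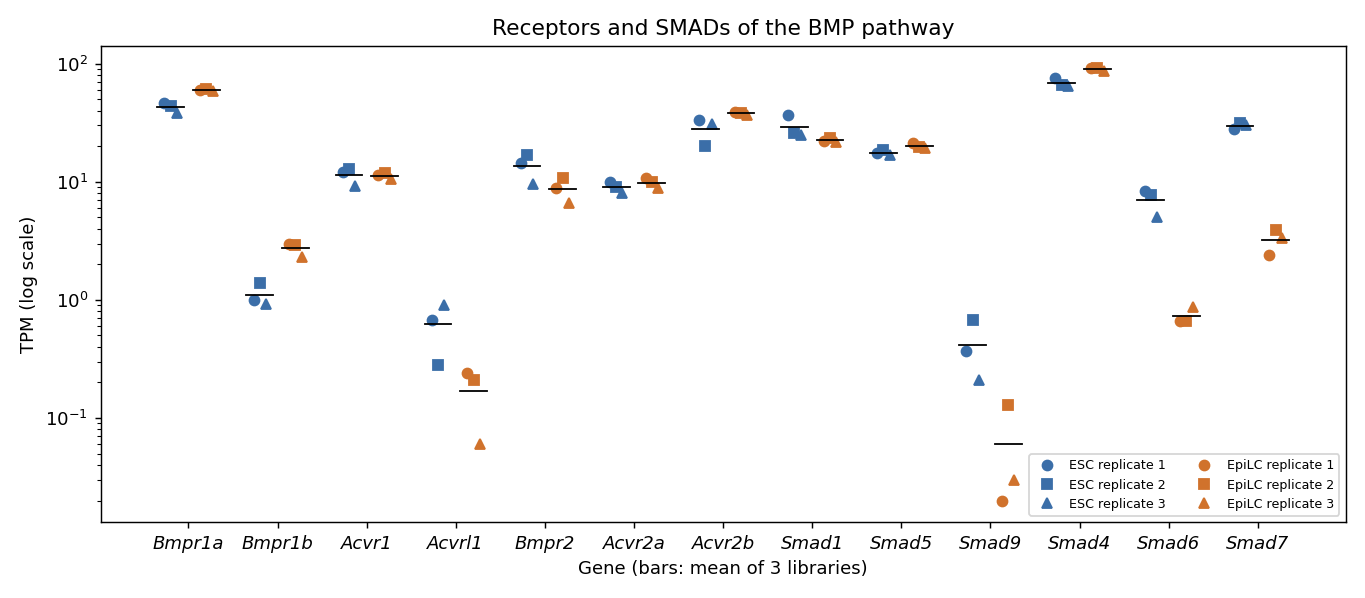
TPM (log scale) of type I receptors, type II receptors and SMADs in each ESC (blue) and EpiLC (orange) library, with bars at the means. Bmpr1a, Acvr1 and Bmpr1b keep their order in both groups, whereas Smad6 and Smad7 sit at 7.03 and 29.7 TPM on average in ESCs but 0.730 and 3.22 in EpiLCs.

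Smad6, which competes with SMAD4 for activated SMAD1 and blocks type I receptors, lies on chromosome 9 from 63953076 to 64022085. It was at 8.30, 7.79 and 4.99 TPM in ESCs and at 0.66, 0.66 and 0.87 TPM in EpiLCs. The 3 EpiLC libraries were all below the ESC libraries, of which replicate 3 was the lowest and still 5.74 times the highest EpiLC value. The log2 fold change was -3.31 (standard error 0.27, edgeR adjusted p = 2.18e-04). Smad7, the inhibitory SMAD shared with TGF-beta signalling, was at 27.7, 31.1 and 30.2 TPM in ESCs and at 2.42, 3.89 and 3.34 TPM in EpiLCs (log2 fold change -3.26, standard error 0.17, edgeR adjusted p = 7.56e-05). In log2 TPM, Smad6 lay below Smad7 with a ratio of -2.11 ± 0.44 in ESCs and -2.12 ± 0.38 in EpiLCs (SD, n = 3; exact two-sided permutation p = 1).

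Of the 4 SMADs that carry the signal, Smad4 rose, Smad9 fell and Smad1 and Smad5 were not called. Smad4, the common partner, rose from 68.6 ± 5.92 to 90.4 ± 3.02 TPM (log2 fold change 0.35, standard error 0.07, edgeR adjusted p = 0.00795). Smad1 was at 29.0 ± 6.51 and 22.4 ± 0.796 TPM (-0.42, adjusted p = 0.0550), with ESC replicate 1 at 36.5 TPM and the other ESC libraries at 25.7 and 24.7. That change passed the threshold without ESC replicate 2 or ESC replicate 3 (adjusted p from 0.0307 to 0.150 when 1 library was left out), and also with DESeq2 or its size factors. Smad5 was at 17.7 ± 0.784 and 20.1 ± 1.07 TPM (0.13, adjusted p = 0.177), below Smad1 in both groups with ranges that did not overlap. Smad9 was low, averaging 0.417 ± 0.234 TPM in ESCs against 0.06 ± 0.0608 in EpiLCs (-2.79, adjusted p = 0.0187). Its call was lost without EpiLC replicate 1 or EpiLC replicate 3 (adjusted p up to 0.0700). The change of Smad9 was -2.29 without ESC replicate 2 and -4.02 without EpiLC replicate 2.

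The 4 ID genes, the most widely used transcriptional readout of BMP signalling, did not change alike, since Id1, Id3 and Id4 fell and Id2 was not called. Id1 lies on chromosome 2 from 152736251 to 152737410. ESC replicates 1, 2 and 3 had 151, 78.5 and 58.0 TPM of Id1, against 7.88, 3.67 and 8.67 TPM for the EpiLC replicates. The ESC libraries spread over 2.61-fold, yet the lowest of them was 6.69 times the highest EpiLC library. The log2 fold change was -3.87 (standard error 0.47, edgeR adjusted p = 9.64e-04).

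Id3, on chromosome 4 from 136143822 to 136145392, is the ID gene with 2 GTCTG matches in the window printed above. Its levels were 130, 168 and 74.3 TPM in ESCs and 40.3, 26.1 and 47.9 TPM in EpiLCs. The groups did not overlap, but ESC replicate 3 was only 1.55 times EpiLC replicate 3. The change was -1.75 (standard error 0.34, edgeR adjusted p = 0.00607). Id4, on chromosome 13 from 48261116 to 48266028, was the lowest ID gene in both groups. It was at 5.71, 7.78 and 7.87 TPM in ESCs and at 1.69, 0.90 and 1.54 TPM in EpiLCs, with no overlap (log2 fold change -2.42, standard error 0.30, edgeR adjusted p = 0.00109). Among the 10 members only Id4 was highest in ESC replicate 3.

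Id2, on chromosome 12 from 25093799 to 25096092, is known to be set by further signals besides BMP. Its levels were 21.8, 19.4 and 16.0 TPM in ESCs and 18.3, 26.6 and 17.4 TPM in EpiLCs, and the groups overlapped. The change was 0.07 (standard error 0.20, edgeR adjusted p = 0.788), and the sign turned without ESC replicate 3 (-0.03) or EpiLC replicate 2 (-0.13).

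TPM is per transcript length, so levels of the ID genes can be set against each other within a library. The summed TPM of the 4 genes was 309, 274 and 156 in ESCs and 68.2, 57.2 and 75.5 in EpiLCs, a 3.68-fold lower mean in EpiLCs. Id3 and Id1 led in ESCs (124 ± 47.3 and 95.9 ± 49.0 TPM) and did not differ beyond their spread, as Id3 was above Id1 in 2 of 3 libraries. Id2 (19.1 ± 2.92 TPM) and Id4 (7.12 ± 1.22 TPM) followed in every ESC library. In EpiLCs Id2 (20.8 ± 5.06 TPM) was above Id1 (6.74 ± 2.69 TPM) in 3 of 3 libraries. Id3 (38.1 ± 11.1 TPM) was above Id2 in 2 of 3, with overlapping ranges, and Id4 (1.38 ± 0.420 TPM) was again the lowest.

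As a share of the summed ID expression, Id1 made up 49.0%, 28.6% and 37.1% in the ESC libraries and 11.6%, 6.41% and 11.5% in the EpiLC libraries. Id2 made up 7.07%, 7.07% and 10.2% in ESCs and 26.9%, 46.4% and 23.0% in EpiLCs. Neither pair of groups overlapped, and both gave an exact two-sided permutation p = 0.1, the smallest that 3 libraries against 3 allow. The share of Id3 was 50.4 ± 9.98% in ESCs and 56.0 ± 9.31% in EpiLCs (SD, n = 3; exact two-sided permutation p = 0.6), with overlapping groups. Shares of Id4 were 3.24 ± 1.63% and 2.03 ± 0.454% (exact two-sided permutation p = 0.3). The log2 ratio of Id1 to Id3 went from -0.41 ± 0.66 in ESCs to -2.55 ± 0.25 in EpiLCs (SD, n = 3), so Id1 fell further than Id3 in these libraries without overlap (exact two-sided permutation p = 0.1).

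**Figure D3:**
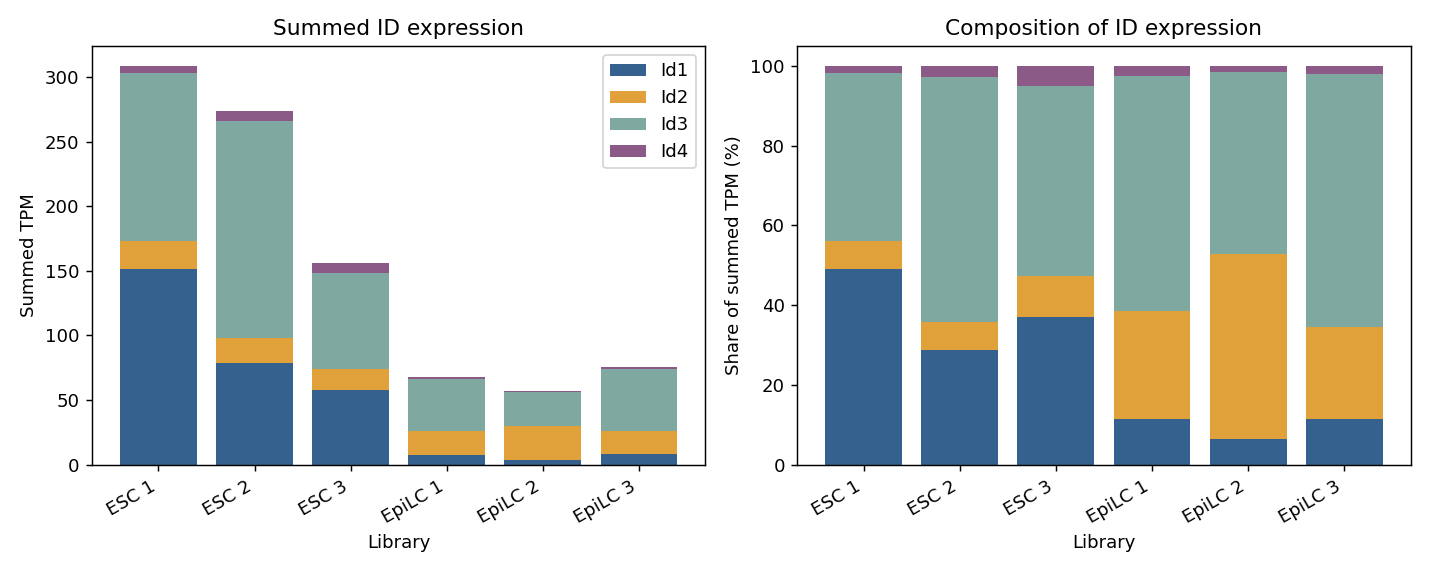
Left, TPM of Id1, Id2, Id3 and Id4 stacked for each library; right, the same as percent of their sum. The sum is 156 or more in each ESC library and 75.5 or less in each EpiLC library, and the Id2 share is 10.2% or less in ESCs and 23.0% or more in EpiLCs.

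Msx2, a homeobox repressor that BMP induces in many embryonic tissues, lies on chromosome 13 from 53466881 to 53472780. It was at 20.4, 13.7 and 10.3 TPM in ESCs and at 0.77, 0.59 and 0.55 TPM in EpiLCs. This was the largest change among the members, -4.57 on the log2 scale (standard error 0.32, edgeR adjusted p = 1.43e-04), and the lowest ESC library was 13.4 times the highest EpiLC library. Its relative Msx1, singled out after its values were seen, was at 31.1, 10.2 and 9.97 TPM in ESCs and at 2.15, 1.60 and 2.23 TPM in EpiLCs (-3.15, edgeR adjusted p = 0.00291; -2.41 without ESC replicate 1).

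The list of 9 other BMP targets had 8 genes tested, of which 6 were lower and 0 higher in EpiLCs, with a median log2 fold change of -2.26. Several are also controlled by other inputs. Dusp9 (35.1 TPM in ESCs and 31.1 in EpiLCs on average, -0.22, edgeR adjusted p = 0.419) and Gata2 (-1.18, adjusted p = 0.0956) were not called. These 2 were named after their values were seen. The largest change was that of Tbx3, a naive pluripotency factor as well as a BMP target, from 53.0 ± 6.68 to 0.573 ± 0.0379 TPM (-6.59, standard error 0.14, edgeR adjusted p = 6.45e-06). Gata3, a trophectoderm and surface ectoderm factor, changed by -3.57 (adjusted p = 0.00187) from a mean of 3.13 TPM. Atoh8 changed by -3.47 (adjusted p = 0.0129), with 1.98, 5.95 and 0.67 TPM in the ESC replicates, the order of the fibroblast markers; its call was lost without EpiLC replicate 1 or EpiLC replicate 2 (adjusted p up to 0.0535), and its change was -2.37 without ESC replicate 2.

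Among 15 extracellular antagonists, which bind BMPs and keep them from receptors, 12 were tested, with 3 lower and 1 higher. Grem1 was at 8.56, 31.7 and 3.43 TPM in ESCs and 0.34, 1.03 and 0.26 TPM in EpiLCs (-4.76, standard error 0.97, edgeR adjusted p = 0.00754). The change was -3.49 without ESC replicate 2 and -5.58 without EpiLC replicate 2. The ESC libraries ranked 2, 1, 3 in all 3 of the antagonists called lower (Grem1, Bmper and Nog), as in the fibroblast markers, and in 7 of the 12 tested. Bmper, which can also aid BMP signalling, had ESC values of 8.04, 9.69 and 2.57 TPM and changed by -4.06 on the log2 scale (standard error 0.55, edgeR adjusted p = 0.00152). Nog, which encodes Noggin, was at 7.45, 11.4 and 2.40 TPM in ESCs and 0.64, 0.30 and 2.79 TPM in EpiLCs. Its change of -2.55 passed the threshold barely (adjusted p = 0.0496), and the call was lost without ESC replicate 1, ESC replicate 2, EpiLC replicate 1 or EpiLC replicate 2 (adjusted p up to 0.151), and with upper-quartile normalization (0.0506). The change was -2.03 without ESC replicate 2 and -3.92 without EpiLC replicate 3. Chrdl1, a chordin relative, rose from 0.330 ± 0.0854 to 1.69 ± 0.307 TPM (2.29, standard error 0.29, edgeR adjusted p = 0.00111).

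Of 7 intracellular inhibitors, 3 were lower and 0 higher in EpiLCs, and 4 were not called. Bambi, a pseudoreceptor, changed by -0.64 (edgeR adjusted p = 0.00880), Tob1, which binds SMADs, by -0.45 (adjusted p = 0.0331) and Smurf1, a ubiquitin ligase for SMADs, by -0.31 (adjusted p = 0.0222). The call of Tob1 held only without ESC replicate 3 when 1 library was left out (adjusted p up to 0.0675), and that of Smurf1 was lost without any 1 of the EpiLC replicates (adjusted p up to 0.0784). Tob1 was also not called with limma on log2(TPM + 1), nor Smurf1 with limma at either pseudocount. Of the 3 E proteins, the partners of ID proteins, Tcf12 rose from 30.2 ± 7.08 to 47.4 ± 3.42 TPM (0.61, edgeR adjusted p = 0.0220), a call lost without EpiLC replicate 1 or EpiLC replicate 2 (adjusted p up to 0.0758). The other 2 were not called.

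Over all 61 other pathway genes, 52 were tested, and 19 were lower and 4 higher in EpiLCs, with a median log2 fold change of -0.44. The share called, 23 of 52, was close to the 45.4% of all genes. The 19 lower and 4 higher stand beside 22.8% and 22.6% of all genes, so the calls in this list leaned to lower. The count fell to 13 without EpiLC replicate 1 and to 14 without EpiLC replicate 2, where 28.7% and 32.2% of all genes were called. Without ESC replicate 2, 7 pathway genes were higher.

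**Figure D4:**
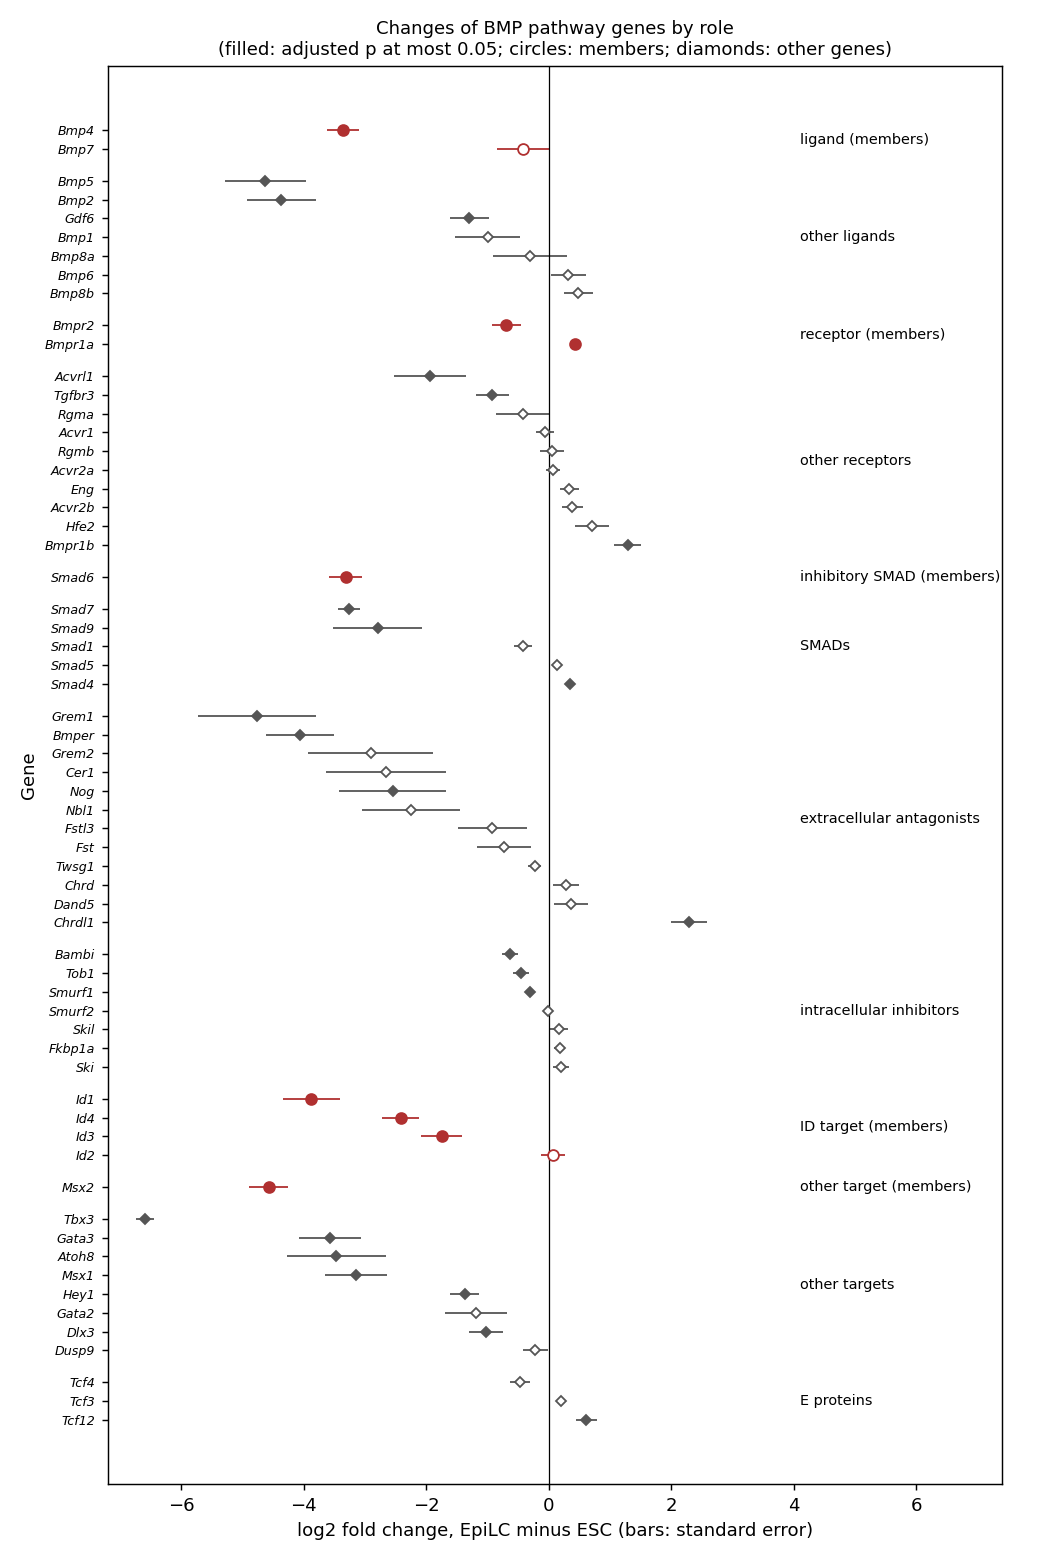
Log2 fold change (EpiLC minus ESC) with its standard error for the 10 members (circles) and 52 other pathway genes tested (diamonds), grouped by role; filled symbols have an adjusted p of at most 0.05. Bmp4, Bmp2, Bmp5, Smad6, Smad7, the antagonists Grem1 and Bmper and several targets lie below -3. Bmpr1a, Bmpr2, most other receptors and the ligands Bmp7, Bmp6, Bmp8a and Bmp8b lie within 1 of 0.

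Levels of other cell types were set beside these results. In the ESC libraries, Bmp4, Bmpr2 and Id3 had the order of the fibroblast markers (2, 1, 3), while Bmpr1a, Smad6, Id1, Id2 and Msx2 ranked them 1, 2, 3. The latter order was also that of 5 of 6 streak and mesoderm markers, T, Mixl1, Evx1, Msgn1 and Tbx6. It was not particular to them, as the EpiLC marker Fgf5, the primitive endoderm marker Gata4 and the trophoblast marker Cdx2 had it too. The streak and mesoderm list of 6 summed to 312, 117 and 76.5 TPM in ESCs and to 2.16, 2.72 and 35.9 TPM in EpiLCs. The 6 primitive endoderm markers summed to 35.4 to 63.6 TPM in ESCs and 4.0 to 5.43 TPM in EpiLCs, and the 5 trophoblast markers, Elf5 near 0, to 58.2 to 141 and 18.1 to 25.7 TPM. In ESCs the trophoblast sum was mostly Eomes, which the streak also expresses, and Eomes averaged 70.2 TPM there against 7.30 in EpiLCs. Krt7 went the other way, from 1.78 to 6.48 TPM (1.80, edgeR adjusted p = 0.00171), and Cdx2 was not called (adjusted p = 0.653). ESC replicate 3 had the lowest fibroblast sum, and there the 7 members called lower ranged from 0.905 times (Bmpr2) and 1.55 times (Id3) the highest EpiLC library, through 4.66 times (Id4), 5.74 times (Smad6), 6.37 times (Bmp4) and 6.69 times (Id1), to 13.4 times (Msx2). Without ESC replicate 2, which had the highest fibroblast sum, 7 of the 10 members were called, all but Bmpr2 of the 8. The part of these other cell types in the differences was not tested.

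**Figure D5:**
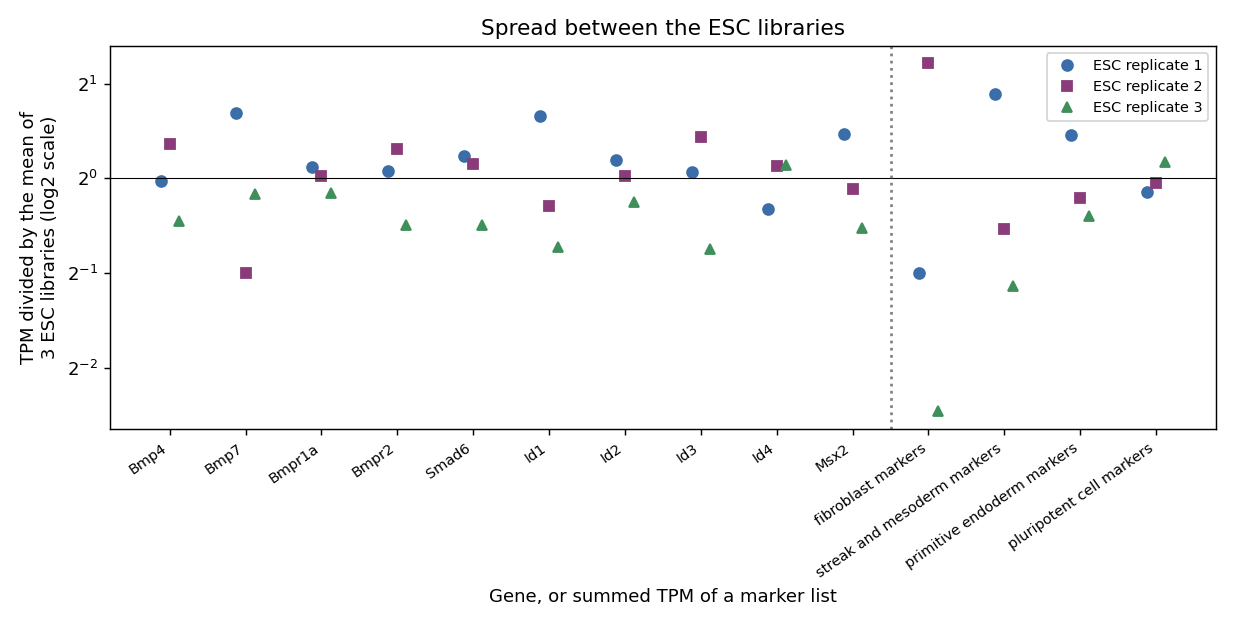
TPM in each ESC library divided by the mean of the 3 ESC libraries (log2 scale), for the 10 members and, right of the dotted line, the summed TPM of 4 marker lists. The fibroblast sum runs from 133 TPM in replicate 3 to 1689 TPM in replicate 2, and Bmp7 from 2.3 TPM in replicate 2 to 7.4 TPM in replicate 1.

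Across the 6 libraries, the genes with log2 CPM most like that of Id1, among 9202 others with a mean of at least 10 CPM, were Abl1, Cask, Snx6, Terf1 and Bmp2, with Pearson's r from 0.991 to 0.998. For Bmp4 they were Notum, Adamts9, Dgkk, Mmd and Cant1, with r of 0.998 to 0.999. These values describe 6 points in 2 groups, and 57 genes reached 0.99 for Bmp4 and 8 for Id1. With group means removed, r ran from 0.886 (Bmp2) to 0.968 (Abl1) beside Id1. Beside Bmp4 it ran from 0.923 (Cant1) to 0.988 (Mmd). The genes were picked by r over the same libraries, so these values are not independent support. Likeness of pattern did not mean likeness of size. Abl1 changed by -0.33 on the log2 scale while Id1 changed by -3.87, whereas Notum, a secreted WNT inhibitor, changed by -4.19.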

How the data were processed

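RNA-seq libraries (single-end, 76 nt, strand-specific) were made from 3 ESC and 3 EpiLC cultures. The authors trimmed reads with cutadapt 1.16, aligned them to mm10 with STAR 2.5.2a and quantified RefSeq genes with RSEM 1.3.0; the labels also name DESeq2 1.16.1. The deposited table holds expected counts, which are not normalized, and TPM, scaled by the authors' RSEM run for length and library. Reads mapping to several genes are divided between them, but every expected count of the 10 members was whole. Groups and replicate numbers came from the sample titles. Expected counts were rounded and tested with edgeR 4.0.16 (R 4.3.3; TMM, filterByExpr, quasi-likelihood test, no block), with p-values adjusted by the Benjamini-Hochberg method at 0.05. Alternatives were DESeq2 1.42.0, other normalizations and filters, the replicate block, limma 3.58.1 on log2(TPM + 1) or log2(TPM + 0.1), and leaving out each library. Ratios and shares used an exact permutation test. Scripts were tested on simulated data. Counting error alone sets the floor of 3 counts. The 10 members and the lists of other pathway and marker genes were chosen with earlier results of these data known. Besides the members, genes were named by rule: all tested receptors and SMADs, up to 3 called genes per direction and list at 1 CPM or more on average, and the 5 genes most like Id1 and Bmp4. The p-values cover the spread between replicates labelled as biological.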

Additional observations from a re-analysis of the deposited data

How the results depend on the processing

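The alternatives for the genes most like Id1 and Bmp4 and for Msx1 were chosen after seeing the data. Bmp4, Bmpr1a, Smad6, Id1, Id3, Id4 and Msx2 kept their direction and an adjusted p of at most 0.05 in all 14 alternatives. Bmpr2 lost its call in 7 of 14, with at least 10 counts in every library, limma at either pseudocount, and without 4 of the single libraries. Only genes that were not called turned direction. On the log2 scale, leaving out 1 library gave Bmp7 values from -0.74 to 0.073 (without ESC replicate 1), Id2 from -0.13 (without EpiLC replicate 2) to 0.18, with -0.03 without ESC replicate 3, Rgmb from -0.087 (without ESC replicate 3) to 0.20, and Acvr1 from -0.18 to 0.035 (without ESC replicate 2). Acvr1 was at 0.0022 and 0.0034 with limma on log2(TPM + 1) and log2(TPM + 0.1). The cause was not tested. With at least 10 counts in every library, 14 other pathway genes were called, 11 of them lower, as 42 rather than 52 were tested. When 1 library was left out, 13 to 29 pathway genes were called (10 to 24 lower, 3 to 7 higher), 7 to 8 members (6 to 7 lower), and 4244 to 7181 of all genes (2100 to 3609 lower, 2144 to 3572 higher). ESC and EpiLC libraries of the same replicate number correlated with r of 0.0067, 0.186 and 0.170 in their deviations from group means, so the numbers were not taken as pairs. With the replicate block, 8 members and 24 pathway genes were called, beside 8 and 23 without it, and 6085 of all genes. Of the named genes, Nog (adjusted p = 0.0942) and Acvrl1 (adjusted p = 0.0700) were called without the block and not with it. A pseudocount of 1 TPM shrinks changes of low genes by construction, and limma on log2(TPM + 1) gave -3.22 for Msx2, -2.19 for Smad6 and -1.78 for Id4. Differences in ID shares moved by less than their spread when CPM replaced TPM.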
